A study of Mus musculus with 22 samples.

Results

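Runx1, Kit and Gfi1 were followed in spatial transcript counts from embryos of the mouse at embryonic day 10. Runx1 and Gfi1 mark the endothelium that gives rise to blood, and Kit marks the cell clusters that bud from it. The members were chosen by name, as the rows Runx1, Kit and Gfi1 of the count tables, and are 3 of the 998 genes measured. The samples were 22 sections of 10 µm, 13 labelled Knockout and 9 labelled Wildtype, imaged with CosMx, a method that hybridises barcoded probes in the tissue and counts single transcripts in each segmented cell. By the labels and the study's methods, all 13 Knockout sections came from 1 Nr4a1-/-Nr4a2-/- embryo and all 9 Wildtype sections from 1 Nr4a1+/+Nr4a2+/+ embryo, without any other treatment. Both null strains had been backcrossed to C57BL/6J by the methods, and the study asked how these nuclear receptors act on the emergence of blood from endothelium. By the same methods each slide carried sections of 1 genotype only. Sections are repeated measurements of 2 embryos, and every p-value below measures the spread between sections, not between animals. Genotype, embryo and slide cannot be told apart. The number of sections for each genotype differs between the labels used here and a legend of the study, with more Wildtype than Knockout sections in the legend and fewer in the labels. The methods state that sections were lost or left out for damage, and give no reason for the difference in order.

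In the embryo, a part of the arterial endothelium, the hemogenic endothelium, turns into hematopoietic cells in a step called the endothelial-to-hematopoietic transition. Runx1 encodes a transcription factor that this step needs. Gfi1 encodes a transcriptional repressor downstream of Runx1 that shuts off the endothelial programme, and Kit encodes the receptor for stem cell factor, which is found on the surface of emerging hematopoietic clusters and of later stem cells, mast cells and germ cells. Runx1 is also known from mesenchymal and skeletal cells. In this tissue, hemogenic endothelium is a small part of all cells, and most of the embryo is mesenchyme, neural tissue, epithelium and primitive red cells.

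The sections held 37570 cells after cells with fewer than 10 transcripts or 10 genes were left out, and a section had between 169027 and 887896 transcripts in total. The targeted genes did not mark the genotype in these counts. Nr4a1 had 1.74, 2.25 and 2.65 counts per 10000 transcripts in the lowest, the median and the highest section labelled Knockout, and 2.29, 2.72 and 3.20 in the sections labelled Wildtype. For Nr4a2 the lowest, median and highest values per 10000 were 3.08, 4.12 and 5.09 in the sections labelled Knockout and 3.37, 4.73 and 6.13 in those labelled Wildtype. The ranges overlapped for both genes. By edgeR's quasi-likelihood test, the log2 fold change of Knockout over Wildtype was -0.05 ± 0.07 (SE) in the case of Nr4a1, with an adjusted p of 0.716, and 0.03 ± 0.09 in that of Nr4a2, with an adjusted p of 0.860. Where the probes lie relative to the deleted parts is not given in the sources used here, so this comparison does not check the labels, and the 2 embryos are called by their labels throughout.

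All 3 genes gave few counts per cell in both embryos. Runx1 was detected in 3652 cells (9.72%), Kit in 3313 (8.82%) and Gfi1 in 3828 (10.2%). Most of these cells held 1 count, in 76.5% of the cells with Runx1, 78.0% of those with Kit and 67.4% of those with Gfi1. The highest count in a cell was 7 for Runx1, 6 for Kit and 9 for Gfi1. The share of cells with a gene followed the total count of the cell: with the cells of each section split into 10 bins of equal size by total count, 0.282% of the Knockout cells in the shallowest bin (median 19 transcripts) held Runx1, and 26.1% of those in the deepest bin (median 732) did. Kit went from 0.330% to 22.8% and Gfi1 from 0.377% to 24.3% over the same cells, so each share below is set against cells of the same section in the same bin of total count.

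The level of a gene was the sum of its counts over a section per 10000 transcripts. Runx1 had 3.36, 4.45 and 5.41 per 10000 in the lowest, median and highest Knockout section, and 4.69, 5.46 and 6.71 in the Wildtype sections. Kit had 3.05, 3.65 and 4.74 in the Knockout sections and 4.40, 4.82 and 6.57 in the Wildtype sections. Gfi1 had 2.01, 4.97 and 6.35 in the Knockout sections and 5.28, 7.09 and 7.62 in the Wildtype sections. All 3 genes were thus higher at the median in the Wildtype sections, and the ranges of the embryos overlapped for each.

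**Figure D1:**
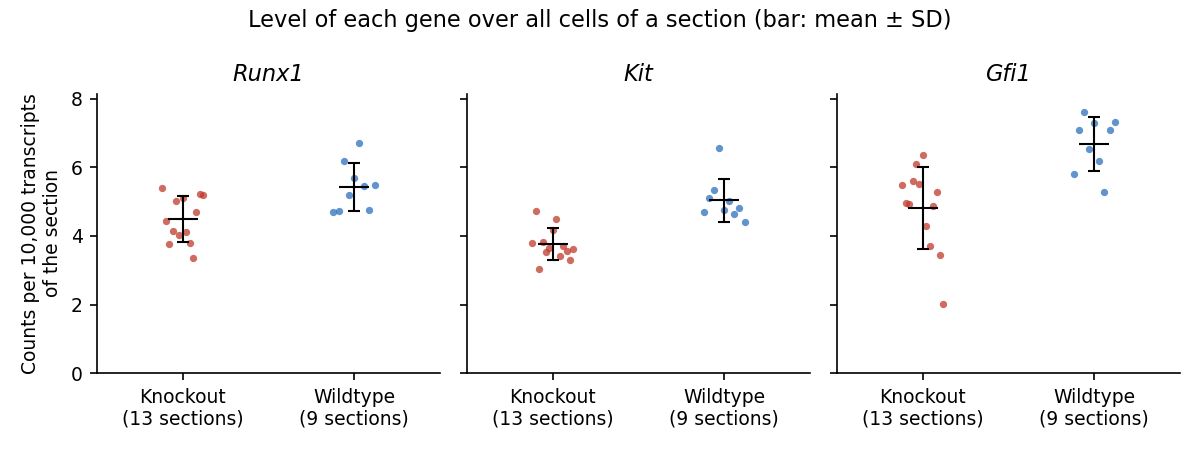
Counts of Runx1, Kit and Gfi1 per 10000 transcripts of a section (y axis) in the 13 Knockout and 9 Wildtype sections; each point is a section and the black bars are the mean ± SD. The ranges of the embryos overlap for all 3 genes, and the lowest Knockout section for Gfi1 sits at 2.01.

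Adjusted for the composition of the counts, none of the 3 genes passed the test between the embryos over all cells. With edgeR's quasi-likelihood test and TMM factors on counts summed per section, the log2 fold change, Knockout over Wildtype, was -0.03 ± 0.08 (SE) for Runx1 (adjusted p = 0.860), -0.13 ± 0.07 for Kit (adjusted p = 0.221) and -0.20 ± 0.11 for Gfi1 (adjusted p = 0.241). Of the 998 genes tested, 12.5% passed at an adjusted p under 0.05, 98 higher and 27 lower in the Knockout embryo. With library size alone in place of TMM factors all 3 passed (-0.29, -0.41 and -0.46), but the median of the whole panel then lay at -0.30. In counts summed over a section, fewer positive cells and less RNA in each cannot be told apart. Kitl, which encodes the ligand of Kit, had a log2 fold change of 0.05 ± 0.08 (adjusted p = 0.722), and Nr4a3, the third member of the receptor family, -0.21 ± 0.09 (adjusted p = 0.125).

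To place the genes in groups of cells, the cells of each embryo were divided into 12 clusters from all genes but the 3 members. In the Knockout embryo 1 cluster of 1135 cells and in the Wildtype embryo 1 of 921 cells met the markers of endothelium and are called EC-like. In them Cdh5, the cadherin of endothelial junctions, was 7.12-fold (Knockout) and 6.82-fold (Wildtype) higher than in the other cells. Pecam1 was 3.30-fold and 4.11-fold higher. Of 14 endothelial markers, 8 reached 2-fold in the Knockout and 7 in the Wildtype cluster. Among those below it, Vwf was 0.97-fold and 1.77-fold and Dll4 1.61-fold and 1.86-fold. The erythroid-like cells were 2 Knockout clusters with 1243 cells together and 1 Wildtype cluster of 1134 cells, in which Epor, the receptor for erythropoietin, was 5.47-fold and 5.55-fold higher. A further cluster in each embryo was led by Tagln, which encodes the smooth muscle protein transgelin, with 1045 Knockout and 681 Wildtype cells. It held smooth muscle markers and a part of the endothelial markers. Tagln was 7.68-fold and 4.14-fold higher, Acta2 6.14-fold and 3.89-fold, Vwf 3.69-fold and 2.82-fold and Cdh5 4.17-fold and 2.42-fold. Of 14 endothelial markers, 7 reached 2-fold in the Knockout and 2 in the Wildtype cluster, with medians of 2.10 and 1.25. Of 7 smooth muscle markers, 4 reached 2-fold in each. The Wildtype cluster met the smooth muscle markers, whereas the Knockout cluster had as many endothelial as smooth muscle markers among its leading genes and stays unnamed, so both are called Tagln-led here. Ptprc, which marks blood cells, was 0.83-fold and 1.23-fold in them, and 0 of 11 macrophage, 0 of 4 mast cell and 0 of 4 erythroid markers reached 2-fold in either embryo. Clusters led by Tpm2 and by Twist1, a transcription factor of mesenchyme, were also present in both embryos. The Twist1-led cluster had Snai1 and Dusp6 as next genes in the Knockout and Tubb5 and Eno1/b in the Wildtype embryo. Neither met the markers for a name, so the shared leading gene does not make them the same cell type. The groups compared below were chosen after the clusters were seen.

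Runx1 was detected above its depth-matched expectation in Tagln-led cells. The share of Tagln-led cells with Runx1 was 9.38%, 19.4% and 25% in the lowest, median and highest Knockout section, where 6.84%, 12.4% and 15.7% were expected from the other cells of the section in the same bin of total count. In the Wildtype sections the observed shares were 11.3%, 21.3% and 36.8%, and the expected ones 9.51%, 14.5% and 20.3%. The observed share was higher than expected in 22 of 22 sections, by 6.32 ± 3.45 percentage points (SD, n = 13) in the Knockout embryo and 8.56 ± 5.47 (SD, n = 9) in the Wildtype embryo. The two-sided sign-flip permutation test over the 22 sections gave p = 1e-05, the smallest that 100000 resamples can give, and an adjusted p of 7.5e-05 over the 15 pairs of gene and group. The exact tests within an embryo also gave the smallest p they allow, 0.000244 for the 13 Knockout sections and 0.00391 for the 9 Wildtype sections. The level of Runx1 in this cluster was 2.02 times that of the other cells in the Knockout embryo and 1.80 times in the Wildtype embryo, and in each embryo 29 panel genes had a larger fold there. The excess was positive for both numbers that the sections carry: 5.21 and 7.61 points for the Knockout sections numbered 1 and 2, and 9.95 and 7.46 points for the Wildtype sections.

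The Runx1 result depended on the definition of the cells. With another random seed no cluster led by Tagln was formed in the Wildtype embryo, but in the clusters that held most of the Tagln-led cells, 84.1% in the Knockout and 74.9% in the Wildtype embryo, Runx1 was 6.72 points above the expectation in 22 of 22 sections (adjusted p = 6e-05, permutation test over 6 comparisons). Taken without clusters, as cells with at least 3 smooth muscle transcripts and fewer of every other class, the excess of Runx1 was 0.15 points (adjusted p = 0.967, permutation test). In the 439 cells with 2 or more counts of both Tagln and Cdh5 the share with Runx1 was 25.7% against 21.5% expected, an excess of 4.24 points in 14 of 19 sections (adjusted p = 0.141, permutation test over 9 tests). In the 1219 cells with 2 or more Tagln counts and no Cdh5 the excess was 2.56 points (adjusted p = 0.156), and in the 2567 cells with 2 or more Cdh5 counts and no Tagln it was 1.15 points (adjusted p = 0.300). None of these 3 classes passed the test. In the 439 cells Gfi1 had a larger excess than Runx1 that did not pass either. It was 6.73 points in 13 of 19 sections (28.3% against 21.5% expected, adjusted p = 0.0806, permutation test). Kit there had an excess of 0.26 points (adjusted p = 0.9415).

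EC-like cells showed no excess of the 3 genes that passed the test. The share of EC-like cells with Runx1 was 8.42% ± 4.60 (SD, n = 22 sections) where 9.39% was expected. For Kit it was 9.13% ± 4.37 where 8.36% was expected, and for Gfi1 10.6% ± 4.12 where 9.83% was expected. The adjusted p-values were 0.412, 0.435 and 0.476 (permutation test), and 10, 10 and 11 of 22 sections lay above the expectation. The direction was not the same for the numbers that the sections carry: for Runx1 the difference was -2.59 points in the Knockout sections numbered 1 and 0.75 in those numbered 2, and -4.60 (0 of 4 sections higher) and 2.11 (3 of 5) in the Wildtype sections. For Kit these values were -1.44 and 1.46 points in the Knockout and 4.38 and 0.17 in the Wildtype sections, and for Gfi1 -1.85 and 0.45, and 3.62 and 2.48. For all 3 genes the result also depended on how the cells were drawn. With 8 clusters for each embryo, where no Tagln-led cluster was formed in both embryos, the excess in EC-like cells was 3.25 points for Runx1 (adjusted p = 0.00016), 2.62 for Kit (adjusted p = 0.0006) and 1.49 for Gfi1 (adjusted p = 0.0372). With EC-like and Tagln-led cells pooled it was 3.23 points for Runx1 (adjusted p = 0.00025), 1.54 for Kit (adjusted p = 0.027) and 0.56 for Gfi1 (adjusted p = 0.279). Endothelial cells selected by marker counts gave 1.66 points for Runx1 (adjusted p = 0.0582), 1.77 for Kit (adjusted p = 0.0406) and 2.22 for Gfi1 (adjusted p = 0.0406, all by permutation test). With a Poisson expectation at the rate of the other cells, Runx1 fell to -2.61 points (adjusted p = 0.0151).

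Kit, too, was somewhat more often detected in Tagln-led cells. Its share was 13.7% ± 4.73 against 11.7% expected, an excess of 2.02 points in 17 of 22 sections (adjusted p = 0.0379, permutation test). The excess was 2.65 points in the Knockout and 1.11 points in the Wildtype embryo and passed in neither alone. Under 5 alternatives a smaller excess did not pass, and selecting cells by marker counts in place of clusters turned its sign (-1.98 points). The level of Kit in these cells was 1.23 times that of the other cells in the Knockout and 1.08 times in the Wildtype embryo, where 145 and 187 panel genes had a larger fold. Gfi1 in the same cells had a difference of 0.37 points (adjusted p = 0.679), with 1.75 in the Knockout embryo (10 of 13 sections higher) and -1.64 in the Wildtype embryo (2 of 9), and passed in neither. With a Poisson expectation it was -3.20 points and passed as lower (adjusted p = 0.00489, permutation test).

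Gfi1 was more often detected in the erythroid-like cells of the Wildtype embryo. Its share there was 15.4%, 19.05% and 36% in the lowest, median and highest section, where 12.1%, 14.7% and 22.2% were expected. The excess of 5.34 ± 3.89 points (SD, n = 9) was positive in 9 of 9 sections (exact sign-flip p = 0.00391, adjusted p = 0.0195). It was 1.04 points with a Poisson expectation (7 of 9 sections, adjusted p = 0.398), 2.34 with 2 counts or more (adjusted p = 0.0586), 3.76 with cells selected by marker counts (adjusted p = 0.105) and 4.71 with 16 clusters (adjusted p = 0.0586), none of which passed. The level of Gfi1 in these cells was 1.41 times that of the other Wildtype cells, beside a median of 1.15 over the panel, and 176 panel genes had a larger fold. In the Knockout embryo the difference was -0.08 ± 3.15 points (SD, n = 13), made up of -3.13 points in a cluster led by Hba-a1/2, Mt1 and Mt2 and 3.34 points in a cluster led by Hba-a1/2, Mt1 and Epor. Tested by cluster, with p-values adjusted over the genes and the 12 clusters, Gfi1 passed as lower in the first (2 of 13 sections higher, adjusted p = 0.0476). In the second it did not pass (adjusted p = 0.145, exact sign-flip tests). The Wildtype cluster that leads with Hba-a1/2, Mt1 and Mt2 met too few markers to be counted as erythroid-like, and Gfi1 lay 1.08 points above the expectation there. Over both embryos the excess in erythroid-like cells was 2.14 points (adjusted p = 0.0517), and for Runx1 and Kit it was 1.01 points (adjusted p = 0.310) and 0.19 points (adjusted p = 0.776).

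Twist1-led cells, 5344 in all, had fewer cells with each gene than their depth gave. Runx1 was in 5.28% against 6.89% expected (adjusted p = 0.00335), Kit in 4.29% against 6.26% (adjusted p = 7.5e-05) and Gfi1 in 5.81% against 7.38% (adjusted p = 0.0072, all by permutation test). Gfi1 passed in neither embryo alone (adjusted p = 0.0994 in the Knockout and 0.0684 in the Wildtype embryo, exact sign-flip tests). By the same tests Runx1 passed in the Wildtype (adjusted p = 0.0293) and not in the Knockout embryo (adjusted p = 0.0842). Its Knockout difference was -0.28 points in the sections numbered 1 (3 of 7 higher) and -2.82 in those numbered 2. Kit passed in both embryos. Kit was below the expectation in 21 of 22 sections. The panel as a whole was low in these clusters, with a median fold against the other cells of 0.787 in the Knockout and 0.701 in the Wildtype embryo, and the members were at 0.766, 0.808 and 0.797 in the Knockout and 0.603, 0.692 and 0.652 in the Wildtype embryo for Runx1, Kit and Gfi1. Between 435 and 716 panel genes had a larger fold, which puts the members within the body of the panel. In Tpm2-led cells Kit was 2.81 points below (adjusted p = 0.0205), whereas Gfi1 at -2.22 points (adjusted p = 0.0517) and Runx1 at -1.02 points (adjusted p = 0.310) did not pass. The panel median fold in these clusters was 0.672 in the Knockout and 0.826 in the Wildtype embryo. Kit was at 0.755 and 0.469 there, with 348 and 979 panel genes at a larger fold. Gfi1 in the Knockout cluster was at 0.563, with 724 genes larger. Within single embryos Kit did not pass there (adjusted p = 0.273 in the Knockout and 0.0684 in the Wildtype embryo), and Gfi1 passed as lower in the Knockout embryo (-2.43 points, 1 of 12 sections higher, adjusted p = 0.0342, exact sign-flip tests). In Twist1-led cells each gene was still found in between 4.29% and 5.81% of cells, at a median of 203 transcripts per cell in the Knockout and 68 in the Wildtype embryo, where EC-like cells had 201 and 185. What gives these cells their counts was not tested.

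Other clusters passed the test as well. Tested in each cluster, with p-values adjusted over the genes and the 12 clusters of an embryo, all 3 genes were higher than expected in a Knockout cluster of 3288 cells led by Ccl11, Il15ra and Best1. The excess there was 2.89 points for Runx1 (12 of 13 sections, adjusted p = 0.00439), 2.04 for Kit (11 of 13, adjusted p = 0.0167) and 2.93 for Gfi1 (12 of 13, adjusted p = 0.00879, exact sign-flip tests). The median fold of the whole panel against the other cells was 1.39 in this cluster, and 642, 663 and 365 panel genes had a larger fold than Runx1, Kit and Gfi1. Of its 30 leading genes, 9 were on chromosome 17, which held 6.53% of the panel genes with a known chromosome. In the Wildtype clusters led by Xcl1 and by Clec10a, 27 of 30 were on chromosome 1 (7.65%) and 23 on chromosome 11 (9.39%). In the Tagln-led clusters the most on any chromosome were 5 of 30 (Knockout) and 7 (Wildtype). What part chromosomes had in the clusters was not tested. All 3 genes were lower in a Knockout cluster of 3068 cells led by Ldha, Eno1/b and Ybx3, with -2.45, -1.41 and -1.96 points and an adjusted p of 0.00439 for each by the exact test, where the panel median was 0.424. In the Tagln-led clusters the panel median was 1.00 in the Knockout and 0.914 in the Wildtype embryo. Of the other clusters outside the groups above, Gfi1 was higher in an unnamed Knockout cluster of 3412 cells (1.80 points, adjusted p = 0.0167) and lower in the Wildtype cluster led by Igfbp5, Alcam and Igfbp3 (-2.54 points, adjusted p = 0.0352), and Runx1 was lower in the Knockout cluster led by Sox2, Hes5 and Cotl1 (-1.41 points, adjusted p = 0.00502, exact sign-flip tests).

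**Figure D2:**
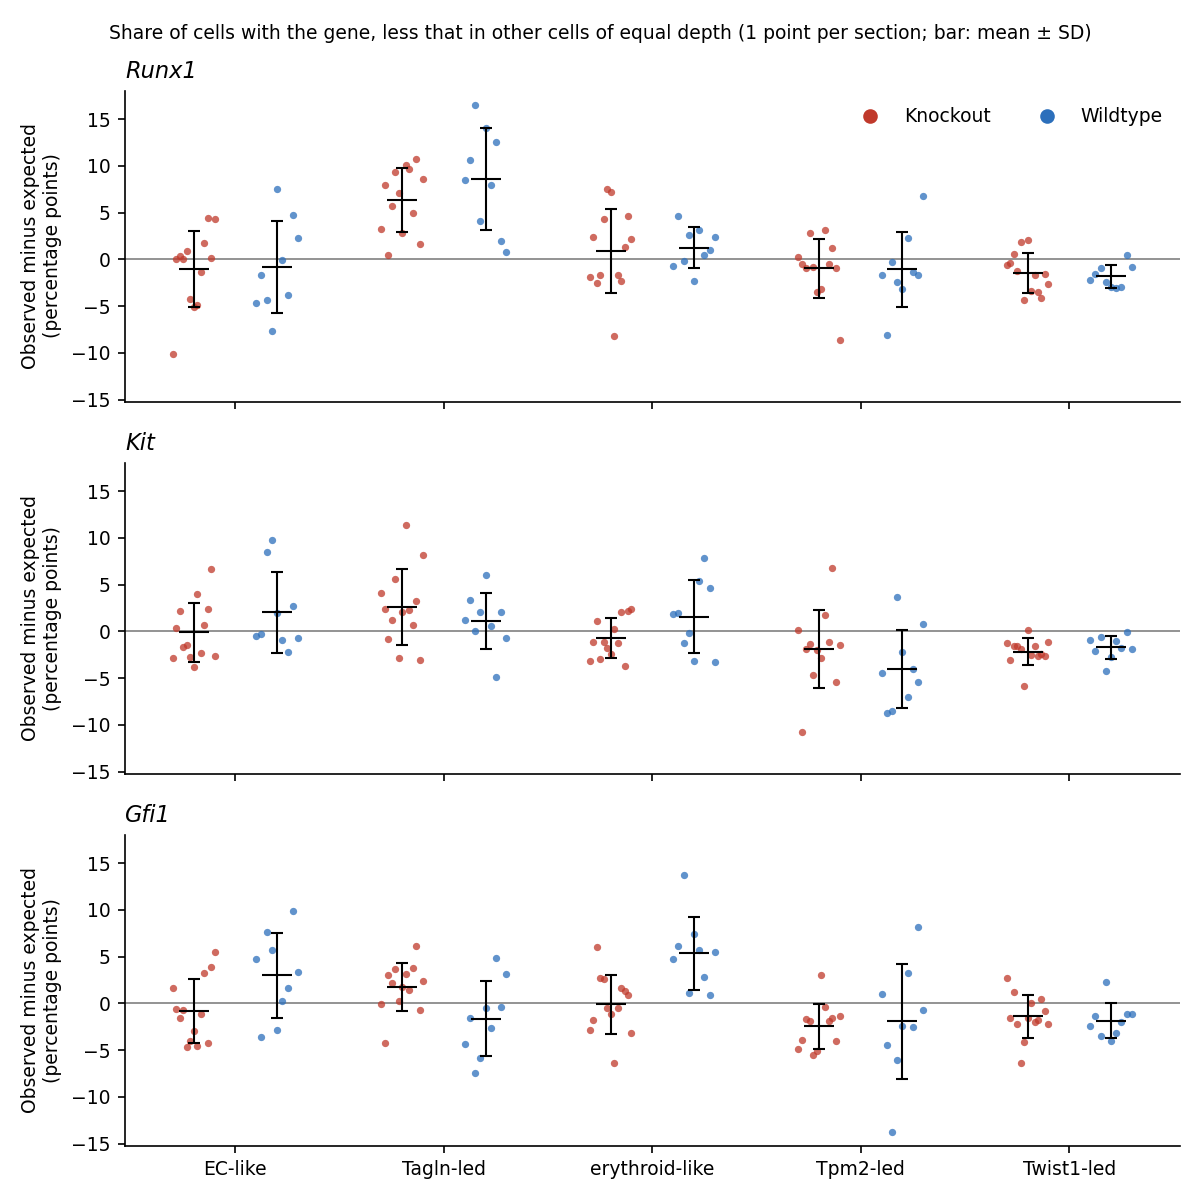
Observed minus expected share of cells with Runx1, Kit or Gfi1 (y axis, percentage points) in 5 cell groups (x axis), 1 point per section, with mean ± SD as black bars and the embryos in red (Knockout) and blue (Wildtype). All 22 sections lie above 0 for Runx1 in Tagln-led cells, and all 9 Wildtype sections lie above 0 for Gfi1 in erythroid-like cells.

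Between the embryos, the EC-like cells could be compared by count for Gfi1 alone. Runx1 and Kit did not pass the filter on low counts there, and 563 of the 998 genes did. Gfi1 had 2.25, 4.61 and 6.46 counts per 10000 in EC-like cells of the lowest, median and highest Knockout section, from 124 counts in 1135 cells. In the Wildtype sections it had 4.30, 8.41 and 13.8 per 10000, from 175 counts in 921 cells. The ranges overlapped, and edgeR's quasi-likelihood test gave a log2 fold change, Knockout over Wildtype, of -0.73 ± 0.22 (SE, adjusted p = 0.0169), lower in the Knockout embryo. In this comparison 15.8% of the 563 genes passed, 70 higher and 19 lower in the Knockout embryo. Leaving out each section in turn gave values from -0.90 to -0.67, all with an adjusted p under the threshold. The call was lost in the sections numbered 2 alone (-0.69, adjusted p = 0.176) and when the Tagln-led cells were added (-0.30, adjusted p = 0.231). Set against cells of like depth, the excess of Gfi1 in EC-like cells was -0.78 points in the Knockout and 2.99 in the Wildtype embryo. This difference of -3.77 points did not pass (exact permutation of the embryo labels, adjusted p = 0.195). In Tagln-led cells alone the log2 fold change of Gfi1 was -0.02 (adjusted p = 0.977). Without the filter, Runx1 had a log2 fold change of -0.23 (adjusted p = 0.712) and Kit of -0.21 (adjusted p = 0.742) in EC-like cells.

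Of the 3 pairs, Kit and Gfi1 were found together in more cells than their depth gave. Both were detected in 718 cells where 583.6 were expected within section and bin of total count, a ratio of 1.23, and observed exceeded expected in 18 of 22 sections (permutation test, adjusted p = 0.00015 over the 3 pairs). The ratio was 0.83, 1.22 and 1.80 in the lowest, median and highest Knockout section and 1.11, 1.27 and 1.47 in the Wildtype sections. In the Knockout sections numbered 1, 162 cells held both where 125.0 were expected (6 of 7 sections higher), and in those numbered 2, 161 where 147.7 were expected (ratio 1.09, 3 of 6). In the Wildtype sections these were 166 against 134.7 (4 of 4) and 229 against 176.2 (5 of 5). The adjusted p was 0.0491 in the Knockout and 0.0117 in the Wildtype embryo alone, and with the expected number taken within cell groups too it was 0.108 and 0.0117 (exact sign-flip tests). Runx1 and Kit were found together in 599 cells against 575.2 expected (ratio 1.04, adjusted p = 0.270), and Runx1 and Gfi1 in 659 against 638.7 (ratio 1.03, adjusted p = 0.325). With 2 counts or more of each, the ratio was 1.38 for Kit and Gfi1 (adjusted p = 0.0154), 1.25 for Runx1 and Gfi1 (15 of 22 sections, adjusted p = 0.0638) and 0.97 for Runx1 and Kit (adjusted p = 0.883). For Runx1 and Gfi1 it then was 1.53 in the Knockout embryo, with 37 cells against 24.3 expected (exact sign-flip test, adjusted p = 0.0286), and 1.06 in the Wildtype embryo (adjusted p = 0.852). EC-like cells, 2056 of the 37570 cells, held 43 of the 718 cells with Kit and Gfi1, 39 of the 599 with Runx1 and Kit and 33 of the 659 with Runx1 and Gfi1. In EC-like cells alone the ratios were 1.20, 1.32 and 1.01, and none passed the test (adjusted p = 0.156, 0.0946 and 0.971). In Tagln-led cells alone, Runx1 and Gfi1 were found together in 90 cells against 73.0 expected (ratio 1.23). Kit and Gfi1 were in 63 against 47.4 (ratio 1.33), and both pairs passed (adjusted p = 0.02475 for each, permutation test). Within single embryos both passed in the Knockout and neither in the Wildtype embryo. Runx1 and Kit had a ratio of 1.05 there (adjusted p = 0.554).

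**Figure D3:**
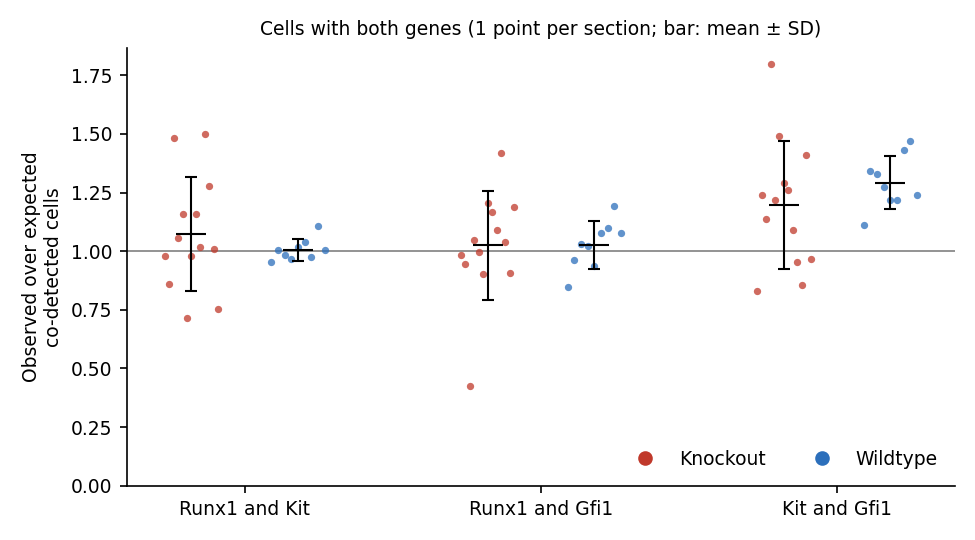
Ratio of observed to expected cells with both genes (y axis) for the 3 pairs, 1 point per section, with mean ± SD as black bars and the embryos in red (Knockout) and blue (Wildtype). All 9 Wildtype sections lie above 1 for Kit and Gfi1, while the points of the pairs with Runx1 spread around 1.

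Kit and Gfi1 lie on the same chromosome in the mouse (5), and Runx1 lies on chromosome 16. Each gene was therefore set against every other gene of the panel, of which 980 were placed on a chromosome of the GRCm38.p6 annotation. The genes found most often with each member lay on its own chromosome. For Runx1 they were Il10rb (ratio 1.25), Ifngr2 (1.25), Ifnar1 (1.22) and Ifnar2 (1.21), which encode chains of cytokine receptors and are 4 of its 5 nearest panel genes, and Adipoq (1.18), an adipocyte hormone. For Kit they included Clock (1.28), a gene of the circadian clock, Kdr (1.25), the VEGF receptor of endothelium and the panel gene nearest to Kit, Gfi1 (1.23) and Cxcl1 (1.22), a chemokine. For Gfi1 they were Hcar2 (1.24), Kit (1.23), Cxcl3 (1.22), Oas3 (1.22) and Plac8 (1.22). Of the 20 genes with the highest ratio, 15 were on the member's chromosome for Runx1, 20 for Kit and 19 for Gfi1, while that chromosome held 32, 56 and 56 of the other panel genes. The gene left over for Gfi1 has no placed chromosome.

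The same held over the whole chromosome and in each section. The median ratio with genes of the own chromosome was 1.13 for Runx1, 1.16 for Kit and 1.15 for Gfi1, and with genes of all other chromosomes 1.03 for each. The 5 nearest genes had a higher ratio than the genes of other chromosomes in 22 of 22 sections for each member, with means over sections of 1.12 ± 0.05 against 1.03 ± 0.01 (SD) for Runx1, 1.20 ± 0.08 against 1.03 ± 0.01 for Kit and 1.17 ± 0.10 against 1.02 ± 0.01 for Gfi1. One of the near genes of Runx1, Sod1, which encodes superoxide dismutase and is abundant in these cells, had a ratio of 1.00 and is the exception. The pattern was common to the panel: for 978 of the 980 placed genes the 5 nearest genes had a higher median ratio than the genes of other chromosomes, and the gap of Runx1 was smaller than that of 367 genes, Kit's than 604 and Gfi1's than 596. Kit and Gfi1 ranked as the third partner of Kit and the second of Gfi1, among 56 genes of their chromosome, so their joint detection was read against those genes and not against the panel. What gives genes of a chromosome their joint detection was not tested.

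Cdh5, an endothelial marker on another chromosome than the members, had a ratio of 1.10 with Runx1 (rank 60 of 997 genes), 1.02 with Kit and 1.03 with Gfi1, where Kit with Kdr had 1.25. Over the 12 endothelial markers on other chromosomes the median was 1.04 for Kit (0.98 for Adgrl4 to 1.10 for Vwf) and 1.03 for Gfi1 (1.00 for Ramp2 to 1.10 for Dll4). For Runx1 it was 1.06 over all 14 (1.02 for Eng to 1.10 for Vwf), beside a median of 1.03 and an upper quartile of 1.06 for all 947 genes on other chromosomes, and Runx1 with Tagln had 1.10. In Tagln-led cells, where the excess of Runx1 was 7.24 points, that of its near genes was 0.23 points for Ifngr2, 0.08 for Ifnar1, -1.02 for Il10rb, -1.17 for Ifnar2 and -10.3 for Sod1.

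**Figure D4:**
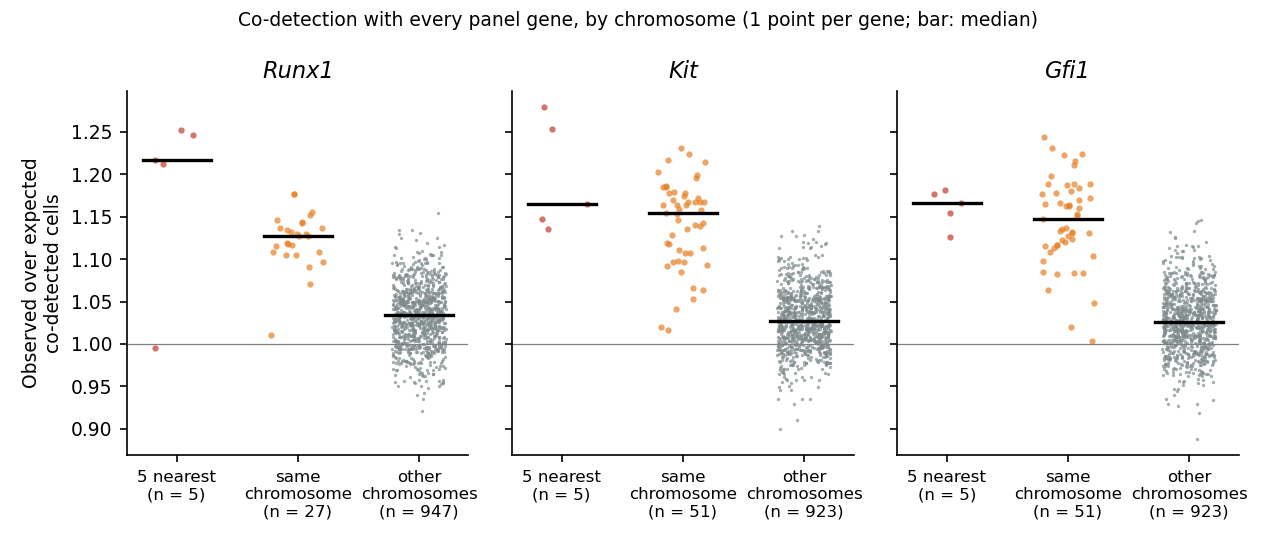
Ratio of observed to expected cells with both genes (y axis) for Runx1, Kit and Gfi1 with each other panel gene, split into the 5 nearest genes, the rest of the same chromosome and all other chromosomes (x axis); each point is a gene and each bar a median. The medians for genes of the same chromosome lie above that of the other chromosomes for each member, with Sod1 at 1.00 as the low point among the near genes of Runx1.

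Cells with 2 or more counts of a member, 857 for Runx1, 728 for Kit and 1248 for Gfi1, were compared with 5 cells without that gene for each, nearest in total count in the same section. Of 978 genes, 8 rose (0.818%) and 8 fell (0.818%) by edgeR with section as a block. Fn1, which encodes fibronectin, had 30.3 ± 9.90 counts per 10000 in the Runx1 cells and 19.7 ± 4.27 in the matched cells (SD, n = 22) and was higher in 20 of 22 sections (log2 fold change 0.54, SE 0.09, adjusted p = 5.27e-05). Tagln rose by 0.47 (18 of 22 sections) and Myl9, a myosin light chain of smooth muscle, by 0.37, and Vim, the intermediate filament vimentin, by 0.32. Adgrg1, which encodes the adhesion receptor GPR56, known from emerging hematopoietic stem cells, rose by 0.43 (SE 0.11, adjusted p = 0.00774), from 7.03 to 9.67 counts per 10000, in 18 of 22 sections. The other rises were Lgals3bp (0.43) and 2 genes of the chromosome of Runx1, Cd80 (0.49) and Ifnar1 (0.41). The 5 largest falls were Ezr (-0.34), Krt8 (-0.30), Eno1/b (-0.28), Tubb5 (-0.26) and Mif (-0.21), among them epithelial and glycolytic genes. With matched cells from the same cell group, Cd80, Adgrg1, Fn1, Ifnar1 and Vim were still called and Tagln (0.13, adjusted p = 0.805) and Myl9 (0.21, adjusted p = 0.624) were not. By edgeR no gene passed as lower in that comparison, where 29 genes were lower at an unadjusted p under 0.05. Cells matched within a group were shallower than the positive cells. Their median total was 450 against 485 for Runx1, 468 against 485 for Kit and 418 against 450.5 for Gfi1. Without the limit to a group, the matched cells had 486, 484 and 448. Of the other members, Gfi1 had a log2 difference of 0.22 (adjusted p = 0.465) and Kit of 0.07 (adjusted p = 0.969) in Runx1 cells.

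In cells with 2 or more Kit counts, 3 of 944 genes rose (0.318%) and 0 fell (0%) by edgeR. At an unadjusted p under 0.05, 57 genes were lower, and DESeq2 called 8 rises and 0 falls. The 3 were Clock (0.51, SE 0.12, adjusted p = 0.00819), Htt (0.50), which encodes huntingtin, and Kdr (0.41), and all 3 lie on the chromosome of Kit, which held 5.72% of the genes tested. Kdr had 12.8 ± 4.26 counts per 10000 in the Kit cells and 9.31 ± 1.81 in the matched cells and was higher in 17 of 22 sections. No gene of the 16 measured for Kit ligand and signalling passed, and the median of that list was -0.04 beside -0.01 for all genes. Among these 3 Kdr is the endothelial gene, and it is the nearest gene to Kit in the panel. Runx1 had a log2 difference of -0.11 (adjusted p = 0.981) and Gfi1 of 0.45 (adjusted p = 0.0666) in Kit cells. Gfi1 was called higher in Kit cells with matched cells from the same cell group, with DESeq2 and with library size alone in place of TMM.

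In cells with 2 or more Gfi1 counts, 19 of 990 genes rose (1.92%) and 27 fell (2.73%) by edgeR. Of the 19, 17 were on the chromosome of Gfi1, which held 5.56% of the genes tested, 1 (Cd68, a lysosomal protein of macrophages) was on another, and Oas1a/g was not placed. The 10 largest rises were Jchain (0.58), which joins immunoglobulin chains, Acacb (0.43), a carboxylase of fatty acid metabolism, the antiviral synthetases Oas2 (0.40), Oas3 (0.39) and Oas1a/g (0.37), Adgrf3 (0.39), Selplg (0.39), the selectin ligand of leukocytes, Kit (0.39), Cxcl2 (0.36) and Cd38 (0.36). Kit had 6.16 ± 3.05 counts per 10000 in the Gfi1 cells and 4.31 ± 1.23 in the matched cells and was higher in 19 of 22 sections (SE 0.11, adjusted p = 0.0177). The 5 largest falls were Igfbp5 (-0.50), Eno1/b (-0.31), Ephb2 (-0.31), Igfbp3 (-0.31) and Efnb1 (-0.30), which include binding proteins of insulin-like growth factors and a pair of ephrin signalling genes. With matched cells from the same cell group, 3 rises (Plac8, Oas1a/g and Oas2) and 0 falls were called by edgeR, with 40 genes lower at an unadjusted p under 0.05.

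**Figure D5:**
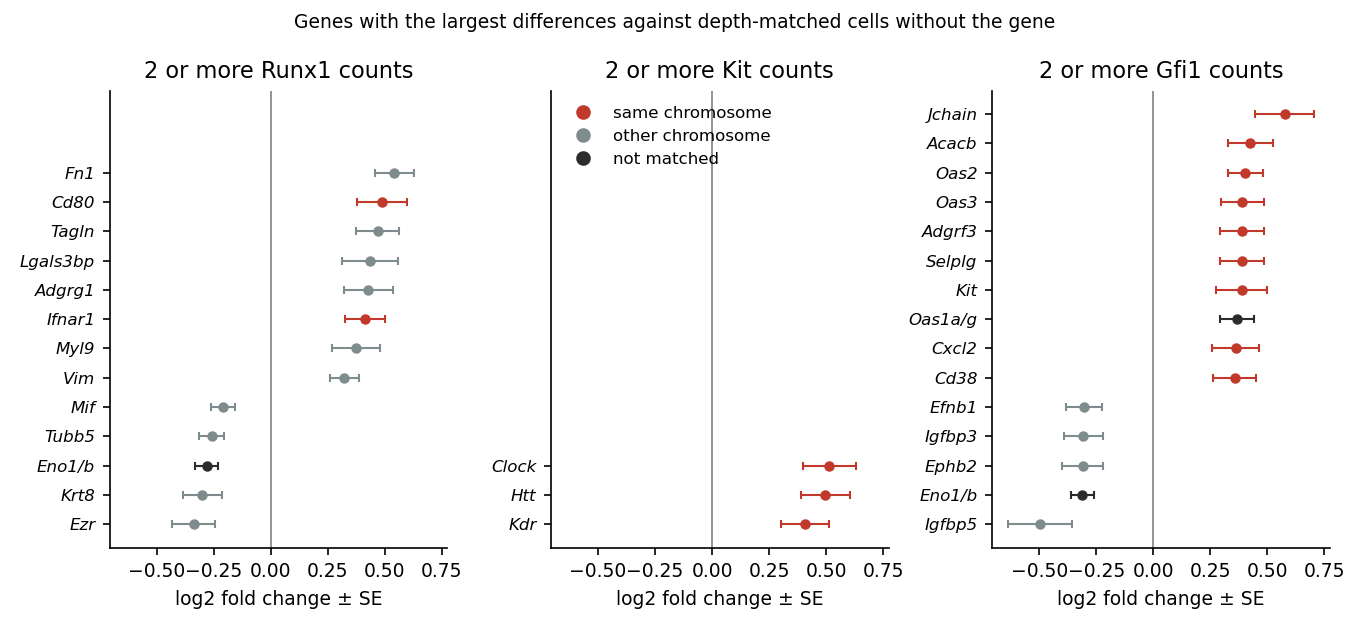
The log2 fold change ± SE (x axis) of up to 10 genes with the largest rises and 5 with the largest falls that passed the test in cells with 2 or more counts of Runx1, Kit or Gfi1 against depth-matched cells without it. Genes on the member's chromosome are red (2 of the 8 rises for Runx1, all 3 for Kit and 9 of the 10 shown for Gfi1), those on other chromosomes grey, and Oas1a/g and Eno1/b, which were not placed, black.

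From the list for the endothelial-to-hematopoietic transition, 1 of 24 genes tested rose in Runx1 cells (Adgrg1), beside 8 of all 978 genes, with a list median of 0.09 beside 0.00 for all genes. In Kit cells 0 of 23 and in Gfi1 cells 0 of 25 genes of this list passed. Of 24 hematopoietic progenitor and myeloid genes, 2 rose in Gfi1 cells, Plac8 (0.34) and Selplg (0.39), both on the chromosome of Gfi1, beside 19 of all 990 genes, and none in Runx1 or Kit cells. No gene of these lists fell. Genes on the member's own chromosome had median log2 fold changes of 0.24 in Runx1 cells, 0.23 in Kit cells and 0.23 in Gfi1 cells, where genes of other chromosomes had 0.00, -0.01 and -0.02. The joint rise of genes on the same chromosome therefore stands beside each of these counts, and its part in them was not tested.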

How the data were processed

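The 22 tables, 1 per section, held raw transcript counts for 998 genes and every segmented cell, which the authors obtained with AtoMx and deposited without normalization. Neither cell areas nor positions were used here, so the study's upper limit on cell area was not applied. The labels name formalin-fixed tissue and a human panel, while the methods describe fresh frozen tissue and a mouse panel. The gene names are those of the mouse. Of 37575 cells, 5 with fewer than 10 transcripts or 10 genes were left out. Cell names are numbered by field of view, and 3410 of 34165 occur in several sections. No doublet caller was run. The median cell of a section held 87 to 332 transcripts, and no 2 of the sections had the same values in 231 pairs. Shares and ratios rest on counted transcripts, and their precision is limited by these depths.

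Cells of each embryo were divided into 12 clusters by a multinomial mixture with 20 starts, fitted without the 3 members. A cluster was named where 3 or more markers of a class were at least 2-fold higher than in the other cells and that class led its 10 highest genes. The excess of a gene in a group is the observed share of cells with a count minus that of the other cells of the section in the same of 10 bins of total count, in sections with at least 10 cells of the group, tested by flipping the signs of the section differences (exact to 13 sections, 100000 resamples otherwise) and adjusted over 15 pairs of gene and group. Co-detection was set against independence within the same bins. Summed counts were tested with the quasi-likelihood test of edgeR 4.0.16 (R 4.3.3) and its TMM factors after filterByExpr, with Benjamini-Hochberg adjustment over all genes tested and calls at 0.05. The alternative tool was DESeq2 1.42.0. Python 3.11.15 with numpy 2.4.6 and scipy 1.17.1 did the rest.

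The genes named are the members, the 3 Nr4a genes and Kitl, the 10 largest rises and 5 largest falls that passed for each member, its 5 strongest partners with at least 20 expected cells and listed genes that passed. Cell type markers and near panel genes were named outside this rule, after their values were seen. The members and lists were chosen with earlier results of these data known, and the cell groups and the comparison by chromosome after the data were seen. Chromosomes were taken from RefSeq for GRCm38.p6, in which 978 of the 998 genes matched by symbol and 2 by synonym. On simulated data, edgeR recovered 100% of 2-fold changes over all cells (998 genes) and 99% in EC-like cells (506 genes), and 97% and 59% of changes of 0.5 on the log2 scale. The processing notes of the submitters name Seurat, which was not used here. Some genes are not reported here.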

Additional observations from a re-analysis of the deposited data

Results flagged for a closer look

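Of 24 sets of 9 Wildtype values examined, 4 held a section that stood apart from the others by the size of the gap to the next value, where chance gives about 1 in 20. The Knockout embryo, with 13 sections, was not examined in this way. Wildtype section 17 had 6.57 Kit counts per 10000 transcripts, where the other 8 had between 4.40 and 5.34. In its 28 EC-like cells Kit had 12.9 per 10000 from 7 counts, where the others had between 3.63 and 8.31. In the same section Gfi1 lay 2.24 points above the expectation in Twist1-led cells, of which this section held 16 with 1 positive, where the other sections lay between -3.98 and -1.17 points. In Wildtype section 16, Gfi1 lay 13.8 points above the expectation in erythroid-like cells, where the others lay between 0.92 and 7.39.

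Of 18 differences between the embryos, 15 in excess and 3 in co-detection, 1 passed. The excess of Gfi1 in erythroid-like cells was -0.08 points in the Knockout and 5.34 points in the Wildtype embryo, a difference of -5.43 points, by an exact permutation of the embryo labels over 497420 arrangements (p = 0.0011, adjusted p = 0.0166 over 15). For the sections numbered 1 and 2 the excess was 0.74 and -1.05 points in the Knockout and 6.43 and 4.47 points in the Wildtype embryo. The erythroid-like cells were 2 clusters in the Knockout and 1 in the Wildtype embryo, and the part of this in the difference was not tested.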

How the results depend on the processing

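No paired analysis was possible because the sections of the embryos share no replicate number. Of 494 alternative values for 61 results, 372 kept direction and side of the threshold. The number of pairs of gene and group above the expectation (2 of 15) was 1 with 2 counts or more, with a Poisson expectation and with cells thinned to 100 transcripts, 4 with 8 clusters and 0 with another random seed. The number below (4 of 15) was 0 with 2 counts or more, 8 with the Poisson expectation and 1 with cells selected by marker counts. With the Poisson expectation, the excess of Runx1, Kit and Gfi1 was -2.61, -0.66 and -1.72 points in EC-like cells and -0.80, -1.28 and -1.45 in erythroid-like cells, and in Tagln-led cells 0.30 for Kit and -3.20 for Gfi1, which passed as lower. Selected by marker counts, endothelial cells gave 1.66, 1.77 and 2.22 points, smooth muscle cells 0.15, -1.98 and -1.78, and erythroid cells -0.024 for Kit. With 8 clusters EC-like cells gave 3.25, 2.62 and 1.49 points, and Kit in erythroid-like cells -0.23. With 1 set of clusters for both embryos, Kit and Gfi1 in EC-like cells gave -0.054 and -1.17, Kit in erythroid-like cells -0.072 and Gfi1 in Tagln-led cells 2.28. EC-like and Tagln-led cells pooled gave 3.23 points for Runx1 and 1.54 for Kit. With 2 counts or more, Runx1 and Kit in erythroid-like cells gave -0.56 and -0.41 and Kit in Tagln-led cells 0.21. Kit in Tagln-led cells was 0.69 points with thinned cells, 1.66 with 16 clusters and 1.18 less its 5 nearest genes, and Gfi1 there was -0.050 with thinned cells. No Tagln-led cluster was formed in both embryos with 8 clusters or another random seed. In the clusters with most of those cells, the excess of Gfi1 was 1.49 points with 8 clusters, where they are the EC-like clusters, and 1.54 with another random seed, each with an adjusted p of 0.031 over 6 tests. The ratio for Runx1 and Kit was 0.97 with 2 counts or more of each, that for Runx1 and Gfi1 1.23 in Tagln-led cells alone, and that for Kit and Gfi1 1.20 in EC-like cells alone.

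Between the embryos, library size alone gave -0.29, -0.41 and -0.46 for Runx1, Kit and Gfi1 on the log2 scale, with 58 genes higher and 719 lower in the Knockout embryo against 98 and 27, and 35 and 183 against 70 and 19 in EC-like cells. DESeq2 called 115 and 43 over all cells. In the sections numbered 1 and 2 alone Runx1 gave 0.063 and -0.067, Kit -0.23 and -0.035 and Gfi1 -0.029 and -0.39, and none passed. Leaving out each section gave -0.052 to 0.023 for Runx1, turning its sign without Knockout section 10 or Wildtype section 19. It gave -0.17 to -0.11 for Kit and -0.24 to -0.15 for Gfi1. Gfi1 in EC-like cells gave -0.69 in the sections numbered 2 alone and -0.30 with Tagln-led cells, and -0.90 to -0.67 without each section. In the sections numbered 1 alone it did not pass the filter on low counts.

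In cells with 2 or more Runx1 counts, 8 genes higher and 8 lower became 5 and 0 with cells of the same group, 4 and 5 with 3 or more counts, and 13 and 14 with DESeq2, and 16 were higher with 10 matched cells and 17 with library size alone. For Kit, 3 higher became 6 with the same group, 0 with 3 or more counts, 8 with DESeq2 and 6 with library size alone, and 0 lower became 2 without the filter. For Gfi1, 19 higher and 27 lower became 3 and 0 with the same group and 3 and 8 with 3 or more counts, and 13 were lower with library size alone. Stricter settings test fewer cells or genes; the cause of the other changes was not tested. Most positive cells held 1 count, which limits every share and ratio here.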
